A study of Mus musculus with 8 samples.

Results

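Of the 37991 genes in the deposited table, 35 genes of DNA replication were examined, chosen by name for their roles in licensing origins, opening and driving the replication fork, copying the strands and supplying nucleotides and histones. Each was matched to its row by Ensembl identifier, and all 35 were found. They were compared between 4 libraries of single colored and 4 libraries of double colored cardiomyocytes of the adult heart, its contractile muscle cells. All 8 libraries came from hearts of mice of the alpha-MHC MERCREMER MADM background. Both groups had received adenoviruses with 4 cell cycle genes, and cells were taken 2 weeks later, so no untreated cells are part of the comparison. Per the labels, single colored cells had performed the cell cycle and double colored cells had not. The alpha-MHC promoter drives a tamoxifen-activated Cre in cardiomyocytes. In MADM (mosaic analysis with double markers), Cre recombines a pair of split color genes on homologous chromosomes, and a division after recombination can give daughter cells of a single color. Recombination without division leaves both colors, and some divisions do too, so a double colored cell is not proof of a cell that never divided. The ages of the mice, and whether the replicates came from separate animals, are not given in the labels, so the p-values speak for the spread among these 8 libraries only, and part of that spread may be technical.

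Replication starts at origins that were licensed beforehand. The origin recognition complex, with Cdc6 and Cdt1, loads the ring-shaped MCM2-7 helicase onto DNA in G1. In S phase Cdc45 and the GINS complex join MCM2-7 to make the active helicase, primase and DNA polymerase alpha start each strand, the RFC complex loads the PCNA clamp, and other polymerases extend. Many of these genes are transcribed by E2F factors as cells pass from G1 into S phase, and their level is low in adult cardiomyocytes, which rarely divide.

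The 8 libraries held between 25604705 and 30082278 counted reads in single colored cells and between 23820700 and 30057373 in double colored cells. Mitochondrially encoded genes took 77.5% to 85.9% of reads in single colored and 84.2% to 88.3% in double colored libraries, which left 3750616 to 6112595 nuclear-encoded reads in single colored and 3503353 to 3850391 in double colored libraries. The 35 genes together took 1876 to 3159 reads per single colored library and 1109 to 1445 per double colored library. Levels of a gene are given as CPM, its reads scaled to library size with TMM factors, and a single read was worth 0.026 to 0.0397 CPM in single colored and 0.0418 to 0.0454 CPM in double colored libraries. All 12 cardiomyocyte marker genes were measured, with a summed level of 14333 to 26206 CPM in single colored and 22692 to 29903 CPM in double colored cells. None had an adjusted p under 0.05 in edgeR. Of the 12, 11 had negative log2 fold changes of single over double colored cells (median −0.43). At an unadjusted p under 0.05 in edgeR 3 were lower, and Myh7 was higher (log2 fold change 0.79 ± 0.27, SE). Of all tested genes 6.1% were lower and 9.02% higher at that level. With the replicate number as a block Pln and Tnni3 were called lower in single colored cells. That block called 7.53% of all tested genes in either direction. Myh7 was called higher with no filter on low counts (2.71% of all genes) and with scaling by library totals alone (11.1%). With totals alone 9 of the 12 were positive (median 0.03, against 0.48 for all tested genes). Single colored replicate 1 stood apart, with the lowest cardiomyocyte sum and the highest sums of the lymphocyte, myeloid, pan-leukocyte and fibroblast markers of all 8 libraries. It was also the highest of its group for 17 of the 30 replication genes tested.

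No replication gene passed the main test over all genes, which has no replicate block, while 4 passed with the block. Of the 30 tested, 24 had a higher fitted level in single colored cells. Of the 35 genes, 30 had enough reads to be tested, and 0 had an adjusted p under 0.05 (edgeR quasi-likelihood test over 12466 genes), against 2.48% of all tested genes in either direction and 2.32% higher in single colored cells. At an unadjusted p under 0.05, 6 were higher in single colored cells (Gins2, Mcm6, Mcm5, Cdt1, Lig1 and Rrm2) and 0 were lower (6.1% of all tested genes were). The 6 are 20% of the tested replication genes, against 15.1% of all tested genes in either direction and 9.02% in this direction. Of the 30 genes, 24 had a positive log2 fold change of single over double colored cells, which is 80%, against 49.4% of all tested genes. Without single colored replicate 1, 18 of the 30 were positive. The median log2 fold change was 0.20, against −0.01 for all tested genes. For 3 genes, Mcm5, Mcm6 and Gins2, every single colored library lay above every double colored one, which is 10% of the tested replication genes against 5.37% of all genes. Of the 30, 6 (Mcm5, Cdt1, Gins2, Cdc45, Uhrf1 and Rfc3) exceeded the filter on low counts in all 4 single but not in all 4 double colored libraries, and Gins1 did so the other way. Gins2, Cdt1 and Mcm5, which are 3 of the 6 genes with an unadjusted p under 0.05, thus passed the filter through the group in which they were higher, whereas Rfc3 had the lower mean in single colored cells. The 5 genes with too few reads were Cdc6, Gins3, Mcm10, Fen1 and Chaf1a. In bulk RNA, a change in the number of cells of a type cannot be told apart from a change in RNA per cell.

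**Figure D1:**
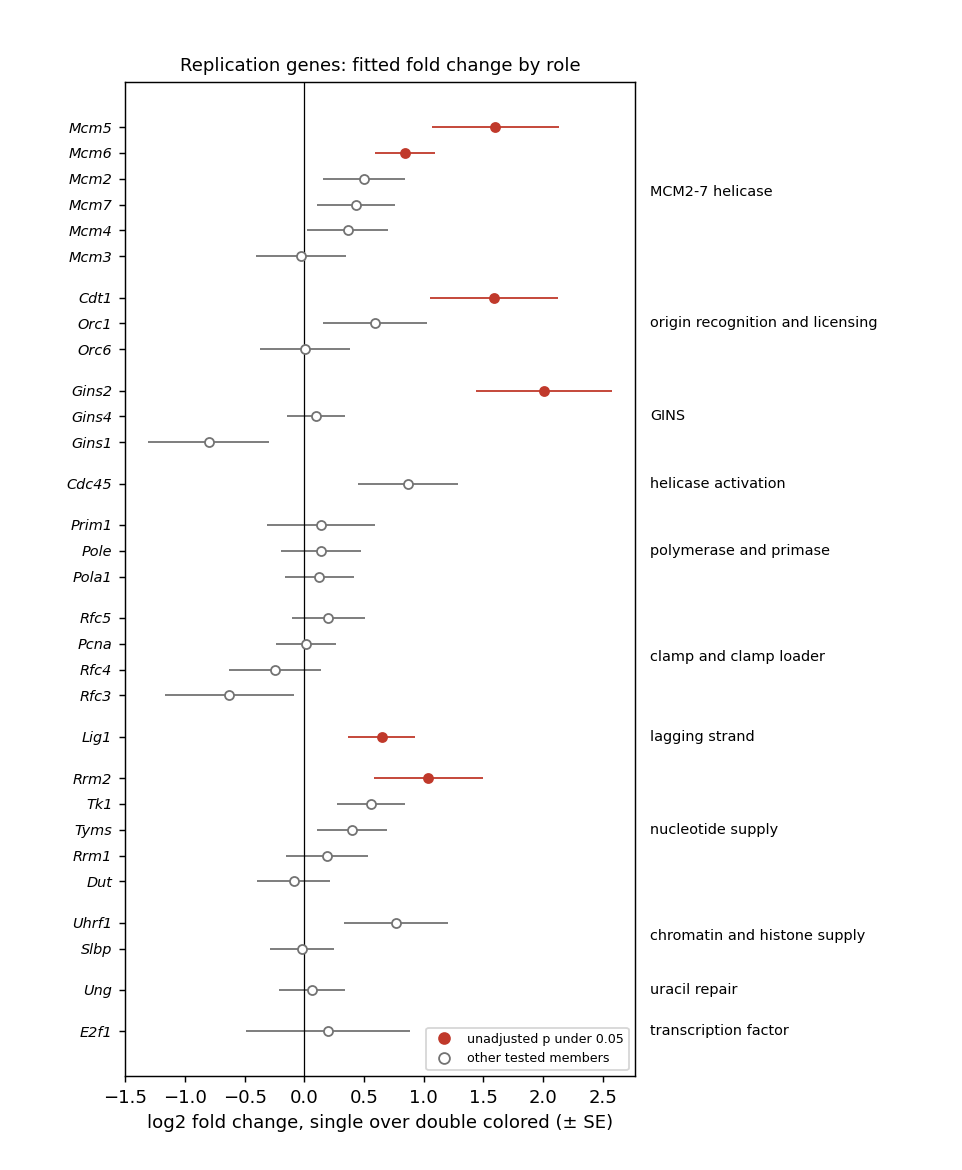
Fitted log2 fold change of single over double colored cells (x axis, bars are the standard error) for the 30 tested replication genes, grouped by role. The 6 filled points had an unadjusted p under 0.05, and all of them lie right of 0. Gins1, at −0.80, lies farthest to the left.

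Libraries that share a replicate number correlated weakly once group means were subtracted (0.126 to 0.257, against up to 0.108 between different numbers). With that number as a block 4 of the 30 genes passed, all with the higher level in single colored cells: Rrm2 by edgeR (adjusted p = 0.0184), Mcm6 (0.0285), Mcm5 (0.0313) and Gins2 (0.0445). With the block 4.97% of all tested genes were called higher in single colored cells and 7.53% in either direction. Within the 4 numbered pairs, 9 of the 30 genes were higher in the single colored library each time (Mcm5, Mcm6, Cdt1, Gins2, Cdc45, Lig1, Rrm2, Tyms and Tk1). That is 30%, against 14.0% of all tested genes, and 1 gene, Gins1, was lower each time. Other settings without the block called 0 to 7 of the tested replication genes, all higher in single colored cells. Scaling by library totals alone called 7 (11.1% of all genes), no filter on low counts 3 (2.71%) and DESeq2 1 (3.34%). The count was 0 with DESeq2 size factors in edgeR (2.29%), with mitochondrially encoded genes removed (2.33%) and with a filter of 5 CPM (1.95%), which left Ung as the only one tested.

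The MCM2-7 genes, which encode the 6 subunits of the helicase ring, had a median log2 fold change of 0.47, and 5 of the 6 were positive. None had an adjusted p under 0.05 in the main test, while Mcm6 and Mcm5 did with the replicate block. The fold changes of the 6 subunits spanned −0.03 to 1.60. Mcm6 (ENSMUSG00000026355, mm9 chromosome 1, 130228168 to 130256233) stood at 5.92, 3.28, 3.83 and 4.25 CPM in single colored replicates 1 to 4, against 2.76, 1.91, 2.16 and 2.80 CPM in double colored replicates 1 to 4. The lowest single colored library was above the highest double colored one. Its mean was 4.32 ± 1.14 CPM in single colored and 2.41 ± 0.444 CPM in double colored libraries (SD, n = 4 each), with a log2 fold change of 0.84 ± 0.25 (SE; adjusted p = 0.0944, edgeR). Mcm5 (ENSMUSG00000005410, mm9 chromosome 8, 77633427 to 77652338) had 1.68, 1.54, 1.35 and 1.87 CPM in single colored replicates 1 to 4, and 1.01, 0.727, 0.0432 and 0.334 CPM in double colored replicates 1 to 4. Single colored libraries were close to each other and lay above all double colored ones, of which replicate 3 had 1 read. The 4 single colored libraries held 207 Mcm5 reads and the 4 double colored ones 49, and the log2 fold change was 1.60 ± 0.53 (adjusted p = 0.146, edgeR).

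The other 4 subunits showed smaller differences. Mcm4 had 5.16, 2.69, 3.38 and 1.43 CPM in single colored and 2.81, 3.00, 2.55 and 1.59 CPM in double colored replicates 1 to 4, so the groups overlapped, with a log2 fold change of 0.36 ± 0.34 (adjusted p = 0.686, edgeR) that was 0.013 without single colored replicate 1. Mcm2 and Mcm7 had fold changes of 0.50 ± 0.34 and 0.43 ± 0.33 on the log2 scale (adjusted p = 0.542 and 0.588, edgeR), with overlapping groups. Mcm2 was at 0.27 without double colored replicate 3, and Mcm7 at 0.26 without double colored replicate 2 and at 0.28 when single colored replicate 1 was left out. Mcm3 was spread widely in single colored cells, at 2.93, 2.69, 1.54 and 0.714 CPM, against 2.14, 1.50, 1.77 and 2.67 CPM in double colored replicates 1 to 4. Its log2 fold change was −0.03 ± 0.38 (adjusted p = 0.984, edgeR), and the single colored range encloses the double colored one. The ratio of Mcm5 to Mcm3 reads, which does not depend on how libraries are scaled, ran from 0.571 to 2.61 in single and from 0.0244 to 0.485 in double colored libraries without overlap. The ratio of Mcm6 to Mcm3 reads overlapped, at 1.22 to 5.94 in single and 1.05 to 1.29 in double colored libraries. These pairs of genes were picked with the values known, so the ratios carry no test.

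Promoters of these subunits are printed because MCM genes are textbook E2F targets and their fold changes spanned a wide range here. The windows run from 250 bases before to 50 after the gene start (RefSeq, GRCm38.p6), on the strand of the gene, and capitals mark matches to an E2F site, searched on both strands as TTTCCCGC, TTTCGCGC, TTTGCCGC or TTTGGCGC.
Mcm6 promoter, chr1:128359656-128359955, minus strand: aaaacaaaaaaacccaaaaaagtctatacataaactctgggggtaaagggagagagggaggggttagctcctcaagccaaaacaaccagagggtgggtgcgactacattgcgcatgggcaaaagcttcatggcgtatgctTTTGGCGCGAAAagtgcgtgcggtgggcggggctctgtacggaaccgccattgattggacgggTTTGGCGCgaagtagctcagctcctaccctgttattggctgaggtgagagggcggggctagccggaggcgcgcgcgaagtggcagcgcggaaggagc
Mcm5 promoter, chr8:75109259-75109558, plus strand: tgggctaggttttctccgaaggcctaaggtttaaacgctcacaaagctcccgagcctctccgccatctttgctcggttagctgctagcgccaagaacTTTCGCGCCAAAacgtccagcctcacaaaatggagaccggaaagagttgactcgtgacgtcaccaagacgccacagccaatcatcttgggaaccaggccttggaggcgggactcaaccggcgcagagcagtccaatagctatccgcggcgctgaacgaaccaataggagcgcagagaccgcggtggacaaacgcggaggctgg
Mcm3 promoter, chr1:20820263-20820562, minus strand: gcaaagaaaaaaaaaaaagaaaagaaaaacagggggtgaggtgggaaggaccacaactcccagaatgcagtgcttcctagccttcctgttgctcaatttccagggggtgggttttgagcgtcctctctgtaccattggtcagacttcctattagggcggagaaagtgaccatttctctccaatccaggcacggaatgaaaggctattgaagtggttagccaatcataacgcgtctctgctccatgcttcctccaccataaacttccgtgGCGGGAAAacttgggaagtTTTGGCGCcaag
Bases are numbered from 1 at the gene start, and those before it are negative. Mcm6 holds a pair of overlapping sites from −110 to −99 and another from −47 to −40, and Mcm5 a pair of overlapping sites from −153 to −142, each pair with a site on either strand. Mcm3 holds sites too, from 20 to 27 and from 39 to 46, although its RNA level overlapped between the groups. Over all the genes studied, 30 of the 35 matched a RefSeq promoter entry, and 12 of these 30, or 40%, held a site in at least 1 window, against 2.6% of the 27025 genes in the table. The 12 were Mcm3, Mcm5, Mcm6, Mcm7, Orc1, Cdc6, Cdt1, Gins3, Pola1, Rfc3, Lig1 and Uhrf1. Among them, 10 were tested, of which 4 (Mcm5, Mcm6, Cdt1 and Lig1) had an unadjusted p under 0.05 in edgeR and Rfc3 had a negative log2 fold change of −0.63. Of the 15 matched and tested genes without a site 1 (Rrm2) did, and of all tested genes 15.1% did in either direction and 9.02% with the higher level in single colored cells. Mcm5 and Cdt1 passed the filter on low counts through the group in which they were higher. Gins1, Gins2, Gins4, Mcm4 and Pole matched no entry, and Gins2 had the smallest p of the tested replication genes. Whether genes with and without a site differ in this was not tested. A match is a run of letters and not a measured binding site.

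**Figure D2:**
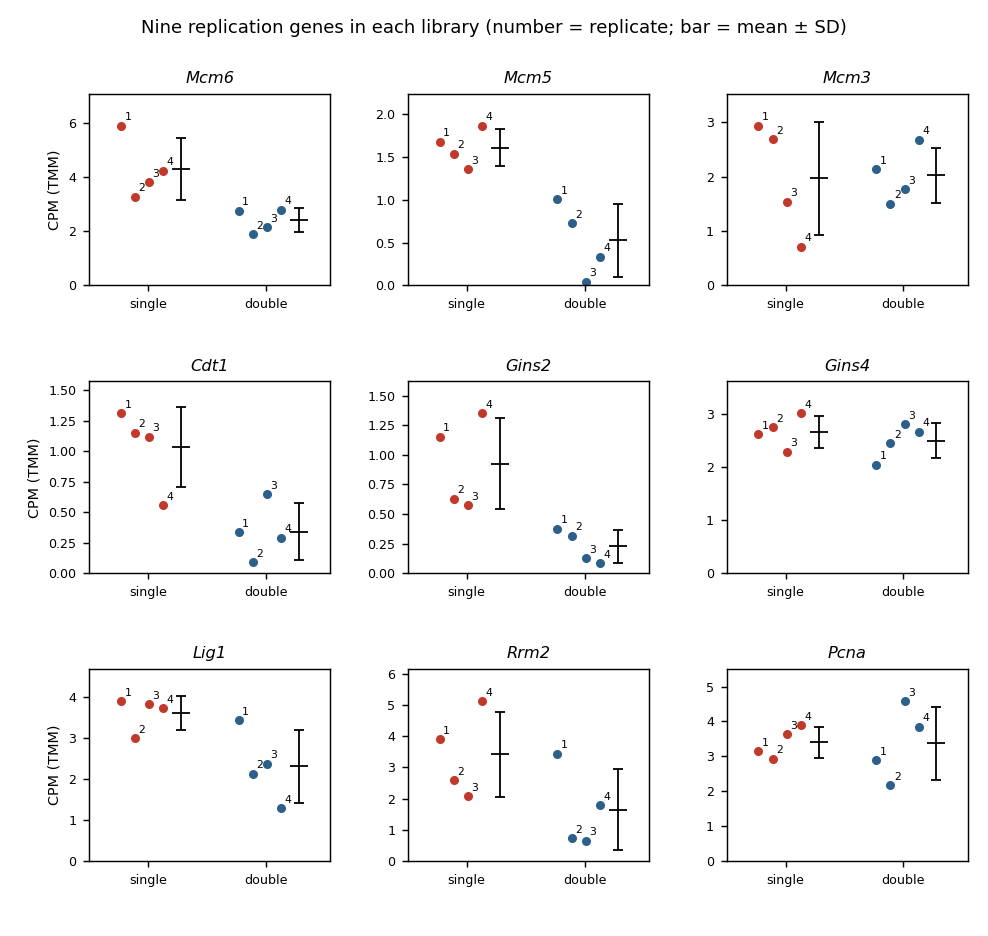
Level of 9 replication genes in CPM (y axis, from 0) in each library, with single colored libraries on the left and double colored on the right, the replicate number beside each point, and mean ± SD as a bar. Mcm6, Mcm5 and Gins2 show no overlap between groups, while Mcm3, Gins4 and Pcna overlap.

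Genes that license origins had a median log2 fold change of 0.59 over the 3 tested, and 0 passed the test. Cdt1 (ENSMUSG00000006585, mm9 chromosome 8, 125091915 to 125097028), which brings the MCM ring to the origin, had 1.31, 1.15, 1.12 and 0.556 CPM in single colored and 0.335, 0.0909, 0.648 and 0.293 CPM in double colored replicates 1 to 4. Only single colored replicate 4 lay below a double colored library, replicate 3. Cdt1 had 140 reads in the single and 32 in the double colored libraries, and a log2 fold change of 1.59 ± 0.54 (adjusted p = 0.152, edgeR). Its promoter is shown with a single site in capitals, from 33 to 40.
Cdt1 promoter, chr8:122567765-122568064, plus strand: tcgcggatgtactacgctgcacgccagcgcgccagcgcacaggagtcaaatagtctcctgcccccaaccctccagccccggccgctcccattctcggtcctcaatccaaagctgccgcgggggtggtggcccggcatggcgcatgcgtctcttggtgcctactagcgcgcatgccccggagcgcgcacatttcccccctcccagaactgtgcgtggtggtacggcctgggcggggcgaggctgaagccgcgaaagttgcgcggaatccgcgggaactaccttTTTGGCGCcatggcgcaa
Cdc6, the partner of Cdt1 in loading the helicase, was not tested, since it had 36, 10, 56 and 30 reads in single colored and 10, 6, 8 and 6 reads in double colored replicates 1 to 4. In CPM, Cdc6 had 0.943, 0.349, 1.46 and 1.19 in single and 0.419, 0.273, 0.346 and 0.251 in double colored replicates 1 to 4, and single colored replicate 2 lay among the double colored libraries. With no filter on low counts its log2 fold change was 1.60 ± 0.58 (adjusted p = 0.109, edgeR). Orc1, the largest subunit of the origin recognition complex, had 1.68, 1.78, 0.468 and 1.55 CPM in single colored and 1.13, 0.863, 1.08 and 0.543 CPM in double colored replicates 1 to 4. Single colored replicate 3 was the lowest of all 8 for Orc1, and the log2 fold change was 0.59 ± 0.43 (adjusted p = 0.581, edgeR). Orc6, a small subunit of the same complex, had 1.52, 1.26, 0.729 and 1.19 CPM in single colored and 0.670, 1.45, 1.43 and 1.13 CPM in double colored replicates 1 to 4, which overlapped (log2 fold change 0.01 ± 0.38). The summed level of the 4 licensing genes was 3.77 to 5.45 CPM in single colored and 2.21 to 3.50 CPM in double colored libraries.

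The GINS complex holds 4 subunits in equal numbers, and the fold changes of its 3 tested genes ran from −0.80 to 2.00 on the log2 scale. Gins2 (ENSMUSG00000031821, mm9 chromosome 8, 123102533 to 123113204) had 1.15, 0.628, 0.572 and 1.35 CPM in single colored and 0.377, 0.318, 0.130 and 0.0836 CPM in double colored replicates 1 to 4. All single colored libraries lay above all double colored ones, with 118 reads against 21. The log2 fold change of 2.00 ± 0.57 was the largest of the 30 tested replication genes (adjusted p = 0.0810, edgeR). Exons of Gse1 on the other strand cover 67.3% of the exon bases of Gins2, and without a stated strand setting the reads of the pair cannot be told apart. Gins4 overlapped between the groups, at 2.62, 2.76, 2.29 and 3.02 CPM in single colored and 2.05, 2.45, 2.81 and 2.67 CPM in double colored replicates 1 to 4, with a log2 fold change of 0.09 ± 0.24 (adjusted p = 0.912, edgeR). Gins1 pointed the other way, at 0.498, 0.244, 0.234 and 0.397 CPM in single colored and 0.796, 0.682, 0.432 and 0.501 CPM in double colored replicates 1 to 4. Its log2 fold change was −0.80 ± 0.51 (adjusted p = 0.494, edgeR), from 45 reads in single colored and 56 in double colored libraries. Gins3 was not tested, with 50 reads in single colored and 51 in double colored libraries. The ratio of Gins2 to Gins4 reads ran from 0.228 to 0.447 in single and from 0.0313 to 0.184 in double colored libraries. This pair too was picked with the values known, so the ratio carries no test. The summed level of the 4 genes overlapped, at 4.30 ± 0.856 CPM in single colored and 3.87 ± 0.228 CPM in double colored libraries (SD, n = 4 each).

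Cdc45, the remaining part of the active helicase, had 1.23, 1.19, 1.27 and 1.87 CPM in single colored and 0.502, 0.409, 0.735 and 1.38 CPM in double colored replicates 1 to 4. It was higher in single colored cells within each numbered pair, but double colored replicate 4 lay above 3 single colored libraries, and the log2 fold change was 0.86 ± 0.42 (adjusted p = 0.346, edgeR). Mcm10, which helps to switch the helicase on, had too few reads to be tested, at 1.02, 0.384, 0.364 and 0.317 CPM in single colored and 0.209, 0.273, 0.432 and 0.293 CPM in double colored replicates 1 to 4. Only single colored replicate 1 was above all double colored libraries for Mcm10.

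Pola1, Pole and Prim1, genes of enzymes that start and extend the strands, had fold changes of 0.12 to 0.14 on the log2 scale. In edgeR 0 of these 3 had an unadjusted p under 0.05. Other tested polymerase and primase subunit genes, not among those chosen, ran more widely, from −0.81 ± 0.54 (Pold1) to 0.78 ± 0.24 (Pold3). Pola1, the catalytic subunit of polymerase alpha, had 3.56, 2.55, 1.77 and 1.75 CPM in single colored and 2.22, 2.27, 1.90 and 2.47 CPM in double colored replicates 1 to 4. Pole, the catalytic subunit of the leading strand polymerase epsilon, had 2.83, 1.71, 1.30 and 1.63 CPM in single colored and 1.30, 1.55, 2.51 and 1.46 CPM in double colored replicates 1 to 4. For both genes single colored replicate 1 was the highest library of all, and the other libraries of both groups overlapped. The log2 fold changes were 0.12 ± 0.29 for Pola1, 0.14 ± 0.33 for Pole and 0.14 ± 0.45 for the primase subunit gene Prim1 (adjusted p = 0.901, 0.908 and 0.933, edgeR). Without single colored replicate 1 their median was −0.15, against 0.14 with all libraries.

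Of the 4 chosen genes of the clamp and its loader 2 were positive and 2 negative (median −0.12). In edgeR 0 of these 4 had an unadjusted p under 0.05. Pcna, which encodes the sliding clamp, had 3.14, 2.93, 3.64 and 3.89 CPM in single colored and 2.89, 2.18, 4.58 and 3.84 CPM in double colored replicates 1 to 4. The means were 3.40 ± 0.441 CPM in single colored and 3.37 ± 1.05 CPM in double colored libraries (SD, n = 4 each), with a log2 fold change of 0.01 ± 0.25 (adjusted p = 0.992, edgeR). A near copy, Pcna-ps2, held 139 reads over all libraries, and the sources used here do not say how reads were divided between them. Rfc5 had 1.65, 1.40, 2.29 and 1.75 CPM in single colored and 1.42, 1.18, 1.56 and 2.01 CPM in double colored replicates 1 to 4, which overlapped, with a log2 fold change of 0.20 ± 0.31 (adjusted p = 0.826, edgeR). Rfc3 and Rfc4, 2 further subunits of the loader, had fold changes of −0.63 ± 0.54 and −0.25 ± 0.38 on the log2 scale (adjusted p = 0.653 and 0.830, edgeR). Their mean levels were 0.519 and 1.33 CPM in single colored and 0.799 and 1.59 CPM in double colored cells.

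Lig1 (ENSMUSG00000056394, mm9 chromosome 7, 13862632 to 13896782), the ligase that joins the fragments of the lagging strand, had 3.90, 3.00, 3.83 and 3.73 CPM in single colored and 3.43, 2.14, 2.38 and 1.30 CPM in double colored replicates 1 to 4. Double colored replicate 1 lay above 1 single colored library, and the other 3 lay below all of them. The log2 fold change was 0.65 ± 0.28 (adjusted p = 0.280, edgeR). Fen1, the nuclease that trims those fragments, had 0, 0, 1 and 1 reads in single colored and 0, 0, 3 and 1 reads in double colored replicates 1 to 4. Of its exon bases 84.2% lie opposite exons of Tmem258 and Gm10143, and its level is not interpreted here.

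Of the 5 genes of nucleotide supply, 4 were positive on the log2 scale (median of the 5 genes 0.40). In the main test 0 passed, while Rrm2 passed with the replicate block. Ribonucleotide reductase, the enzyme that makes deoxynucleotides, is built from the products of Rrm1 and Rrm2. Rrm2 (ENSMUSG00000020649, mm9 chromosome 12, 25393106 to 25399011), the subunit known to be made mainly in S phase, had 3.90, 2.58, 2.08 and 5.12 CPM in single colored and 3.43, 0.727, 0.648 and 1.80 CPM in double colored replicates 1 to 4. Libraries numbered 1 and 4 were high in each group, and the single colored library was the higher within each number. The log2 fold change was 1.04 ± 0.45 (adjusted p = 0.296, edgeR), and 1.23 with the replicate block. It ran from 0.77 to 1.68 when a library was left out, the highest value being that without double colored replicate 1. The Rrm2 promoter window, shown beside those with sites, holds no match to the 4 spellings.
Rrm2 promoter, chr12:24708004-24708303, plus strand: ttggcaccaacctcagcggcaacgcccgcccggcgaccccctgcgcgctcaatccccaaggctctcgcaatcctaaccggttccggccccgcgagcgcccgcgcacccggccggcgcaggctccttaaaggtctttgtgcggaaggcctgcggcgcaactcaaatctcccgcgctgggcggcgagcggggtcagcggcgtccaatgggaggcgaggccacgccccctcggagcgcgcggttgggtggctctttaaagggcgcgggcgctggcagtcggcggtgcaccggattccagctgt
Rrm1, the large subunit, had 7.81, 6.42, 1.67 and 5.83 CPM in single colored and 5.82, 4.14, 4.88 and 4.18 CPM in double colored replicates 1 to 4. Single colored replicate 3 was the lowest of all 8 for Rrm1, and the log2 fold change was 0.19 ± 0.34 (adjusted p = 0.857, edgeR). The ratio of Rrm2 to Rrm1 reads, a pair also picked with the values known, overlapped. It was 0.402 to 1.25 in single and 0.133 to 0.590 in double colored libraries. The thymidine kinase gene Tk1 and the thymidylate synthase gene Tyms were higher in the single colored library of each numbered pair, with fold changes of 0.56 ± 0.28 and 0.40 ± 0.30 on the log2 scale (adjusted p = 0.371 and 0.585, edgeR). Dut, which removes dUTP, had 2.54, 4.19, 1.56 and 3.17 CPM in single colored and 2.64, 3.04, 4.23 and 2.21 CPM in double colored replicates 1 to 4, which overlapped (log2 fold change −0.09 ± 0.31).

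Among genes that pack the copied DNA, Uhrf1, which helps to copy DNA methylation, had 1.55, 0.454, 1.14 and 1.15 CPM in single colored and 0.712, 0.500, 0.691 and 0.627 CPM in double colored replicates 1 to 4. Single colored replicate 2 was the lowest of all 8 and the other 3 lay above the double colored libraries, with a log2 fold change of 0.76 ± 0.44 (adjusted p = 0.440, edgeR). Slbp, which binds histone mRNA, had 3.30, 4.01, 1.98 and 3.29 CPM in single colored and 2.85, 3.27, 4.23 and 2.38 CPM in double colored replicates 1 to 4, with no separation. Chaf1a, a histone chaperone subunit, had 23, 13, 79 and 6 reads in single colored and 9, 7, 3 and 7 reads in double colored replicates 1 to 4 and was not tested, with replicate 3 holding most of its single colored reads. Ung, which removes uracil from DNA, had 3.43, 7.64, 6.71 and 10.1 CPM in single colored and 5.65, 5.27, 6.48 and 9.19 CPM in double colored replicates 1 to 4, with a log2 fold change of 0.06 ± 0.28 (adjusted p = 0.956, edgeR). E2f1, the founding E2F factor, had 57 reads in the single and 35 in the double colored libraries, at 0.865, 0.314, 0.104 and 0.437 CPM in single colored and 0.712, 0.273, 0.432 and 0.0836 CPM in double colored replicates 1 to 4. Neither gene separated the groups.

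**Figure D3:**
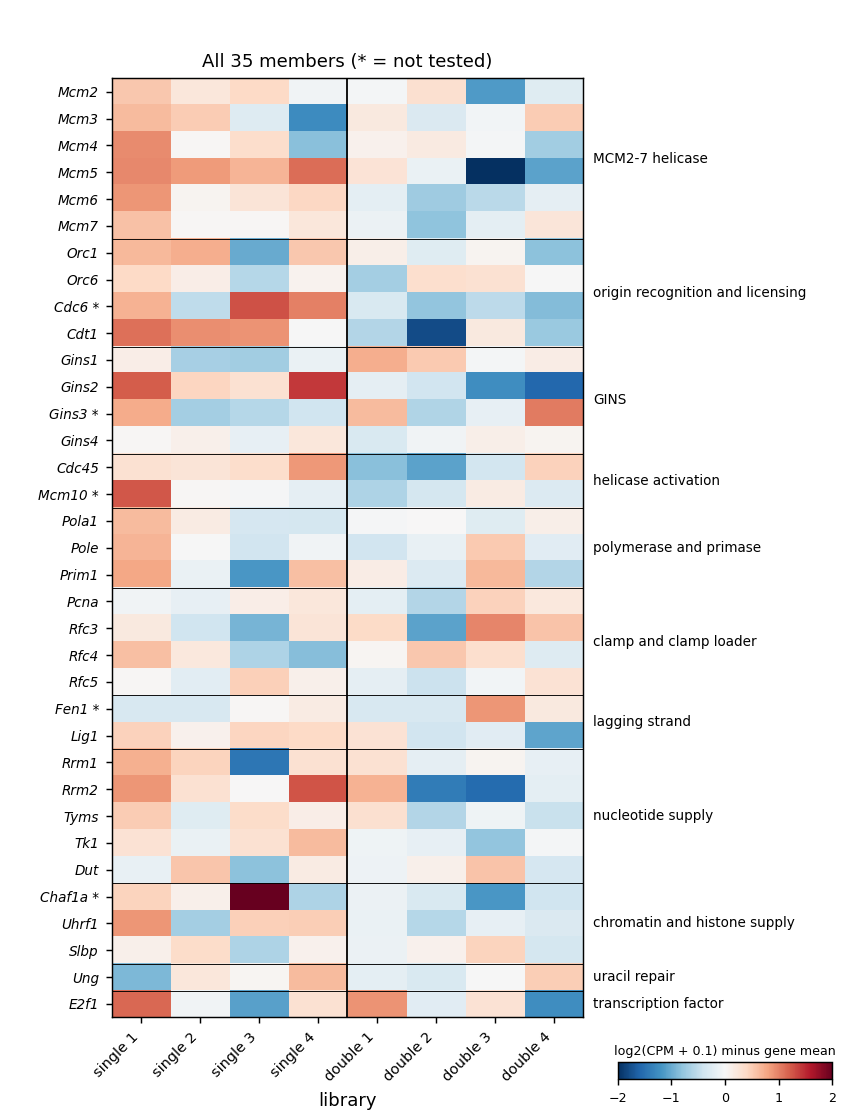
Level of all 35 replication genes in each library as log2(CPM + 0.1) minus the gene's mean over the 8 libraries (color scale), grouped by role, with single colored libraries on the left; an asterisk marks the 5 genes not tested. Mcm5, Cdt1 and Gins2 are above their means in nearly all single colored libraries, and single colored replicate 1 is high across most rows.

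Per length, the tested genes with the highest mean level over all libraries were Ung at 2.66 CPM per kilobase of exon, Gins4 at 1.89, Pcna at 1.41, Rrm1 at 1.27 and Dut at 1.22, and none of these 5 had an unadjusted p under 0.05 in edgeR. The 3 genes whose groups did not overlap were lower, at 0.770 CPM per kilobase for Mcm6, 0.305 for Mcm5 and 0.141 for Gins2. The value of Gins2 is uncertain, as exons of Gse1 on the other strand cover 67.3% of its exon bases.

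The 5 groups of genes named for comparison ranked MCM2-7 (median log2 fold change 0.47), nucleotide supply (0.40), polymerase and primase (0.14), GINS (0.09) and RFC3 to RFC5 (−0.25). The summed level of MCM2-7 was 14.8 ± 3.82 CPM in single colored and 10.1 ± 1.30 CPM in double colored libraries (SD, n = 4 each). The highest double colored library, at 11.6 CPM, lay just above the lowest single colored one, at 11.5 CPM. Nucleotide supply summed to 17.0 ± 4.33 CPM in single colored and 13.2 ± 2.42 CPM in double colored libraries. Polymerase and primase summed to 5.57 ± 2.04 CPM in single colored and 5.09 ± 0.757 CPM in double colored libraries, and the 3 RFC genes to 3.62 ± 0.584 CPM in single colored and 3.93 ± 0.499 CPM in double colored libraries (SD, n = 4 each). In all 5 the groups overlapped. Over the 8 omissions of a library the median stayed positive for MCM2-7 (0.34 to 0.59) and nucleotide supply (0.27 to 0.61). That of polymerase and primase ran from −0.15 to 0.38. The GINS median (0.01 to 0.15) was each time the value of Gins4, with Gins1 at −1.06 to −0.64 and Gins2 at 1.73 to 2.36. For RFC3 to RFC5 the median stayed negative (−0.59 to −0.06), although Rfc5 stayed positive (0.04 to 0.35) and Rfc1 and Rfc2 are not part of it. With scaling by library totals alone the median of all tested genes moved to 0.48. The group medians were 1.00 for MCM2-7, 0.92 for nucleotide supply, 0.63 for polymerase and primase, 0.56 for GINS and 0.28 for RFC3 to RFC5. That of RFC3 to RFC5 thus flipped its sign and stayed below the median of all genes. The groups hold 3 to 6 genes, and the differences between them were not tested.

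**Figure D4:**
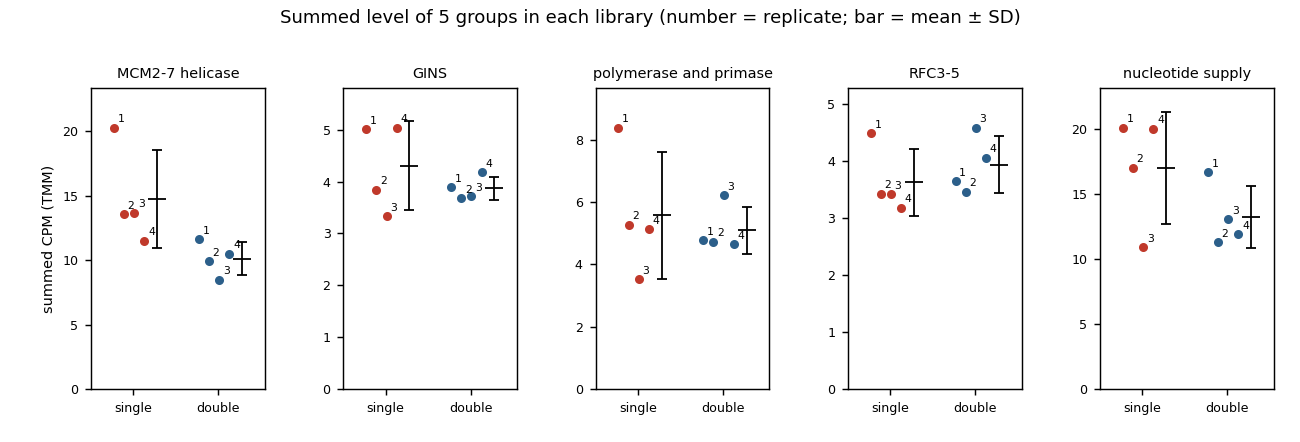
Summed CPM (y axis, from 0) of MCM2-7, GINS, polymerase and primase, RFC3 to RFC5 and nucleotide supply genes in each library, single colored on the left and double colored on the right, with the replicate number beside each point and mean ± SD as a bar. The groups overlap in all 5 panels.

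Genes of white blood cells were higher in the same single colored libraries. Of 12 lymphocyte markers 9 were tested and 8 were called higher (edgeR quasi-likelihood test, adjusted p under 0.05). So were all 5 pan-leukocyte markers and 3 of 10 myeloid markers, against 2.32% of all tested genes. With the replicate block, which called 4.97% of all tested genes higher, the counts were 8 lymphocyte, 5 pan-leukocyte and 7 myeloid markers. The summed lymphocyte level was 34.7, 20.0, 19.5 and 17.0 CPM in single colored and 4.69, 3.86, 4.23 and 1.71 CPM in double colored replicates 1 to 4. Pan-leukocyte markers summed to 57.8 to 107 CPM in single colored and 14.0 to 30.3 CPM in double colored libraries, and myeloid markers to 207 to 355 CPM in single colored and 105 to 142 CPM in double colored libraries. Without single colored replicate 1 or double colored replicate 4, 5 lymphocyte markers were called higher. Of the pan-leukocyte markers 2 were called higher without single colored replicate 1 and 3 without double colored replicate 3 or 4. Fibroblast markers, of which 1 of 8 (Col1a1) was called higher, summed to 623 to 1848 CPM in single colored and 300 to 738 CPM in double colored libraries. The replicate block called 4 of them higher (Col1a1, Col1a2, Col3a1 and Postn), while without the block the call of Col1a1 was lost when any of single colored replicates 1, 2 and 3 or double colored replicates 2 and 3 was left out. Without single colored replicate 1, 4 of the 8 fibroblast markers had positive log2 fold changes, against 6 with all libraries. Endothelial markers, with 0 of 7 called, summed to 149 to 180 CPM in single colored and 153 to 192 CPM in double colored libraries. Smooth muscle and pericyte markers, with 0 of 6 called, summed to 227 to 319 CPM in single colored and 292 to 400 CPM in double colored libraries, and erythroid markers, with 0 of 3 called, to 1.71 to 9.39 CPM in single colored and 0.961 to 12.1 CPM in double colored libraries. All 35 replication genes together summed to 82.8, 68.0, 59.7 and 74.5 CPM in single colored and 60.5, 50.4, 59.8 and 56.9 CPM in double colored replicates 1 to 4, so that single colored replicate 1 was highest for both the lymphocyte and the replication sum. Dividing white blood cells are known to express replication genes, and their part in the result was not tested. Without single colored replicate 1, 18 of the 30 genes had positive log2 fold changes and 4 had an unadjusted p under 0.05 in edgeR (Cdt1, Gins2, Mcm5 and Mcm6). The share of all genes in that fit is not given here, and with all libraries it was 15.1%. The remaining 3 single colored libraries still had 17.0 to 20.0 CPM of lymphocyte markers.

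**Figure D5:**
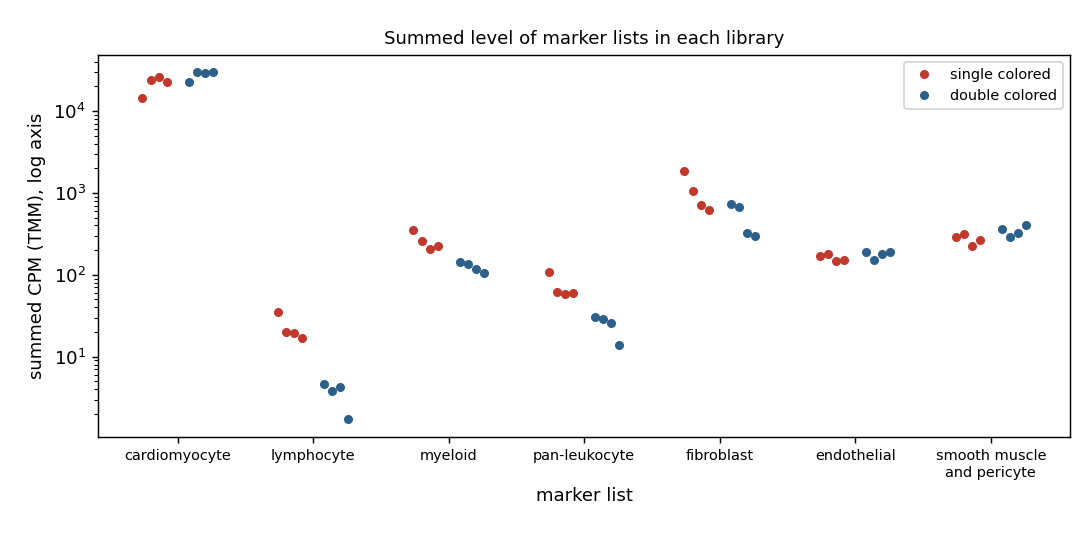
Summed CPM (y axis, log scale) of marker lists in each library, with single colored libraries left of double colored ones within each list and replicates 1 to 4 from left to right. Lymphocyte, myeloid and pan-leukocyte sums do not overlap between the groups, while cardiomyocyte, fibroblast, endothelial and smooth muscle and pericyte sums do.

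Of 59 other genes of replication, 55 were tested and 1 passed, against 2.48% of all tested genes, with a median log2 fold change of 0.16. At an unadjusted p under 0.05, 6 of the 55 were higher and 1 lower, against 9.02% higher and 6.1% lower of all tested genes. The gene past the test was Samhd1, an enzyme that breaks down deoxynucleotides and is abundant in myeloid cells, so its known role is opposite to that of ribonucleotide reductase. Samhd1 had 58.7, 31.7, 59.2 and 49.3 CPM in single colored and 21.6, 15.3, 33.5 and 25.6 CPM in double colored replicates 1 to 4, with a log2 fold change of 1.05 ± 0.23 (adjusted p = 0.0240, edgeR). Double colored replicate 3 lay just above single colored replicate 2, and the call was lost when any of single colored replicates 1, 3 and 4 or double colored replicates 1, 2 and 4 was left out (adjusted p up to 0.163, edgeR). The next smallest p were those of E2f6, a repressor of the E2F family, with a log2 fold change of −0.57 ± 0.17, the polymerase delta subunit gene Pold3 at 0.78 ± 0.24 and the activator gene E2f3 at 0.69 ± 0.21 (adjusted p = 0.0890, 0.106 and 0.114, edgeR). With the replicate block E2f6 was called lower and E2f3 higher. Of 22 genes of mitosis, tested for comparison, 0 passed in the main edgeR test and 1 (Cenpe) in DESeq2 (3.34% of all genes). In edgeR with no filter on low counts Ccna2 and Cenpe were called higher (2.71%). Scaling by library totals alone called 7 higher (11.1%), and the replicate block called Cenpe and Ccna2 higher (4.97%). At an unadjusted p under 0.05 in edgeR 6 of the 22 were higher and 1 lower, against 9.02% and 6.1% of all tested genes, and 20 were positive with a median of 0.33, against 49.4% of all tested genes. Cenpe, a kinetochore motor gene, and the cyclin gene Ccna2 had fold changes of 0.74 ± 0.21 and 0.99 ± 0.33 on the log2 scale (adjusted p = 0.0698 and 0.145, edgeR), and Bub1, a checkpoint kinase gene, and the kinetochore gene Cenpf had 0.98 and −0.49 (adjusted p = 0.174 and 0.151, edgeR).

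In the authors' deposited table, in which a positive fold change means higher in double colored cells, 34 of the 35 genes had a p-value, and 7 had a raw p under 0.05, all higher in single colored cells: Gins2 (p = 0.00789), Cdc6 (0.0154), Mcm6 (0.0155), Mcm5 (0.0160), Cdt1 (0.0176), Chaf1a (0.0383) and Rrm2 (0.0454). Of all genes in the authors' deposited table, 9.77% had a raw p under 0.05. The smallest FDR of a replication gene in the authors' deposited table was 0.297, and 0 of 15711 genes had an FDR under 0.05. That table and the tests here rest on the same libraries.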

How the data were processed

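RNA was measured in 4 single and 4 double colored libraries, with groups and replicate numbers from the sample titles. Per the labels, the miRNeasy Micro Kit was used for RNA and the amplifying Ovation RNA-seq System v2 for libraries. Per the submitters' processing notes, STAR 2.5.2b, featureCounts (Subread) and build mm9 were used, and per the file headers the alignments were filtered at a mapping quality named q30. No source used here gives the strand setting. The deposited raw counts are whole numbers rather than estimated counts, per the file headers, so no rounding was needed. The authors' deposited log2 fold changes, p-values and FDR are quoted only where named. Symbols are GENCODE vM21 names matched by Ensembl identifier (32919 of 37991 genes), coordinates are mm9 from the deposited table, and promoters are from RefSeq GRCm38.p6.

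Raw counts were tested with edgeR 4.0.16 in R 4.3.3 (filterByExpr with a minimum count of 10, TMM scaling, robust quasi-likelihood F-test, Benjamini-Hochberg adjustment at 0.05 over 12466 genes, no block), after tests on simulated data. Exon overlap was computed with GenomicRanges 1.54.1. Alternatives were DESeq2 1.42.0, its size factors in edgeR, totals alone, mitochondrially encoded genes removed, no filter, a filter of 5 CPM in 4 libraries, the replicate block, and leaving out each library. After subtracting group means, libraries with the same number correlated over genes (0.257, 0.126, 0.136 and 0.139 in order of number). As each exceeds 0.1, numbers were treated as pairs in the replicate block and in the counts within pairs, but not in the main test. Different numbers reached 0.108, and no label says what a number stands for. All 35 replication genes are accounted for, with values in each library for those with an unadjusted p under 0.05 and for the 2 of each role with the highest mean CPM; Mcm3, Cdc6, Gins1 and Chaf1a were added with their values known. Of the other replication and mitosis lists the 4 genes with the smallest p are named. The genes and lists were chosen with earlier results of these data known.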

Additional observations from a re-analysis of the deposited data

Results flagged for a closer look

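Of 70 groups of 4 libraries (35 genes in each of the 2 groups), 3 held a library far from the other 3 by Dixon's criterion, and chance alone flags about 1 in 20 groups. Single colored replicate 1 had 0.734 CPM of Gins3, with the next highest library of its group at 0.278 CPM. The same library had 1.02 CPM of Mcm10, with the next at 0.384 CPM. Single colored replicate 4 had 1.87 CPM of Cdc45, with the next at 1.27 CPM. Gins3 and Mcm10 had too few reads to be tested between groups. Over the 8 omissions of a library the log2 fold change of Cdc45 ran from 0.66 to 1.32.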

How the results depend on the processing

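The count of 0 replication genes past the test held with DESeq2 size factors in edgeR, with mitochondrially encoded genes removed, with a filter of 5 CPM (where only Ung was tested) and in all 8 omissions of a library. It was 4 with the replicate block, against 4.97% of all genes higher. Scaling by totals alone called 7 (Cdt1, Gins2, Lig1, Mcm5, Mcm6, Rrm2 and Tk1), against 11.1% of all genes higher. With no filter 3 were called (Mcm5, Gins2 and Rrm2, adjusted p = 0.0206, 0.0438 and 0.0248, edgeR), against 2.71%. DESeq2 called 1 (Gins2, adjusted p = 0.0308), against 3.34%. All of these were higher in single colored cells. The replicate block changed no other call of these genes. Over all genes 309 were called, 1390 by totals alone, 805 with no filter, 559 with DESeq2, 939 with the replicate block, 97 with the 5 CPM filter and 134 to 304 when a library was left out (142 without single colored replicate 1, 191 and 134 without double colored replicates 2 and 4). Of the other replication genes 55 were tested and 1 was called, against 2.48% of all tested genes. Totals alone called 9, all higher, against 11.1% of all genes higher. The replicate block called 3, against 7.53% of all genes in either direction, and 0 to 1 was called when a library was left out. The median log2 fold change of the tested replication genes was 0.71 by totals alone, where all genes had 0.48, and 0.13 to 0.38 when a library was left out.

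Scaling by totals alone turned the sign of Mcm3 (0.48), Rfc4 (0.28), Dut (0.31) and Slbp (0.42), none above the shift of all genes, and DESeq2 that of Orc6 (−0.00064). When a library was left out, signs turned for Orc6 (−0.19 to 0.18), Pola1 (−0.14 to 0.24), Pole (−0.15 to 0.38), Prim1 (−0.16 to 0.43), Rrm1 (−0.053 to 0.49), E2f1 (−0.44 to 0.71), Mcm3 (−0.30 to 0.23), Pcna (−0.15 to 0.19), Dut (−0.33 to 0.11), Slbp (−0.16 to 0.14) and Ung (−0.18 to 0.28); the cause was not tested. Mcm5, Mcm6, Cdt1 and Gins2 kept an unadjusted p under 0.05 in edgeR in all 8 omissions (log2 fold changes of 1.21 to 2.12, 0.64 to 0.95, 1.28 to 2.08 and 1.73 to 2.36), Rrm2 in 3 and Lig1 in 2. Mcm5, Mcm6, Cdt1 and Gins2 also had the smallest p of the replication genes with all libraries. The omissions share most of their libraries, so they are not independent tests. With all libraries 15.1% of all tested genes had such a p, and the share in the omissions is not given here. With 21 to 49 reads in the double colored libraries, depth limits Gins2, Cdt1 and Mcm5.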
